A study of Carassius auratus with 4 samples.

Results

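The 34 probes described here are named for proteins of vesicle docking and fusion, their regulators and proteins of the vesicle membrane. They are called vesicle fusion probes below. The rule that chose them uses only names, though it was set with earlier results of these data known. It takes the clones on a goldfish cDNA array whose printed description names a syntaxin, SNAP-25, synaptobrevin or VAMP, complexin, synaptotagmin, synaptogyrin, Munc protein, soluble NSF attachment protein or synaptic vesicle protein. They make up 34 of 8100 gene probes and carry 21 different names, so several genes are measured by more than 1 clone. The name rule found no probe of synaptophysin, synapsin or syntaphilin on the array. A further 2 clones printed as snap25b, with a differently spelled description, fall outside the rule and are given only beside the SNAP-25 probes.

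Regulated secretion depends on SNARE proteins. A SNARE of the vesicle, VAMP (also called synaptobrevin), pairs with syntaxin and SNAP-25 on the target membrane, and the zippering of these proteins draws both membranes together. Unc-18 and Munc13 proteins prepare the complex, complexin holds it in a primed state, synaptotagmins with calcium-binding domains trigger fusion, and soluble NSF attachment proteins take spent complexes apart. Endocrine cells of the pituitary use the same proteins to release their hormones as nerve endings use to release transmitter, and the teleost pituitary is entered directly by hypothalamic nerve fibres.

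The cells were dispersed from pituitaries of male and female goldfish (Carassius auratus). One group had 10 nM goldfish secretoneurin (SN), a peptide cut from secretogranin II, for 12 h in static incubation. The other is labelled as having had no incubation, so the peptide and the incubation itself cannot be told apart. The series describes 4 control and 4 treatment samples, paired on 4 arrays, with secretoneurin RNA in Cy5 on replicates 1 and 3 and in Cy3 on replicates 2 and 4. Nothing in the labels ties the pairs to separate cultures. The spread behind each p-value and standard error (SE) is therefore that between these 4 pairs, drawn by limma toward the spread of all probes. It may be technical. No age is given, and cells dispersed from whole pituitaries do not show which cell type carries a transcript. In such a mixture fewer cells of a type and less RNA per cell cannot be told apart.

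Each array held 16200 gene spots, with 2 spots for each clone, and median intensities of 156 to 221 scanner units in Cy5 and 400 to 653 in Cy3. The 3 hormone probes found by name, for growth hormone, carp somatotropin and the thyrotropin beta subunit, passed background in all channels, with a mean log2 signal of 11.9 to 12.7 in secretoneurin and 12.2 to 12.5 in control samples. The 78 probes matched by name to nerve ending and glia markers had mean log2 signals of 8.12 to 8.29 in secretoneurin and 8.14 to 8.22 in control samples. Many of the 78 were clones printed as ependymin (EPD), stathmin or myelin basic protein, and how far these mark nerve endings or glia was not tested. The match also took in a probe of sphingomyelin phosphodiesterase 2, through the letters of myelin. The median log2 ratio of secretoneurin over control of the 78 was 0.023, with 48 above 0 and 30 below. Of all probes, 4089 lay above 0 and 4000 below. In limma, 4 of the 78 above 0 and 1 below had an unadjusted p under 0.05. The 4 were EPD clones and a stathmin family clone, and the 1 below was isotocin neurophysin. The part of nerve endings and glia in the values below was not tested. Over all 8089 probes tested, limma called 0 (0%) at an adjusted p under 0.05, and 223 (2.76%) had an unadjusted p under 0.05.

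Most of the vesicle fusion probes were dim. Averaged over all channels, their median log2 signal was 8.02, beside 8.04 for all probes and 7.88 for 216 wells printed with buffer only. The 95th percentile of the buffer wells was 8.53, and 8 of the 34 probes (23.5%) were brighter than that, as were 24.5% of all probes. These 8 were a VAMP-2 probe (51h21), a synaptotagmin-11 probe (52a20), a SNAP-25B probe (29o23), the second VAMP-2 probe (53p12), beta-SNAP, the Sec1 family domain protein, syntaxin-4 and an Unc-18A probe (59n04). The VAMP-2 probe 51h21 had a mean log2 signal of 10.8.

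The other measure asked whether a clone's spots lay, on average, more than 2 standard deviations of the local background above that background. More probes passed in Cy5 than in Cy3 on every array: 19, 14, 28 and 12 of the probes passed in Cy5 on replicates 1 to 4, and 4, 2, 2 and 5 passed in Cy3. Over all probes, 39.9% to 75.4% passed in Cy5 and 15.2% to 18.6% in Cy3. In 14 of the 34 probes (41.2%, beside 46.6% of all probes) the control samples passed on no array. In 4 of these 14 the secretoneurin samples passed on none either (11.8% of the 34, beside 14.5% of all probes). The other 10 passed only in secretoneurin samples (29.4% of the 34, beside 32.2% of all probes). All 10 passed in Cy5 on replicate 3, and none passed in Cy3. That channel passed 75.4% of all probes, where the Cy5 channels of control samples passed 45.1% and 39.9%. None of the 34 passed only in control samples, as 255 of all 8089 probes did. Of the 10, 9 gave no lower bound above 1-fold and 1 gave a bound of only 0.0051 on the log2 scale. No fold is therefore given for any of the 14. For them the values below are differences in log2 signal, not measured folds.

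**Figure D1:**
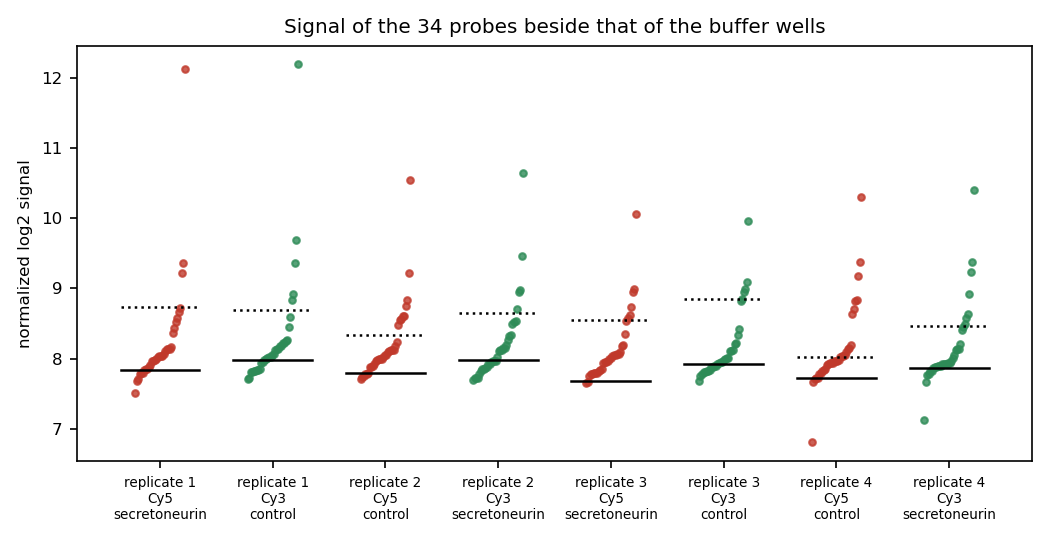
Normalized log2 signal (loess within arrays, Aquantile between them) of the 34 probes in each of the 8 channels, sorted from dim to bright, with Cy5 in red and Cy3 in green. Solid lines mark the median of the buffer wells and dotted lines their 95th percentile: 26 of the 34 probes have a mean under the 95th percentile, and VAMP-2 probe 51h21 lies above it in every channel.

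The comparison asked which of these transcripts differed after 12 h with secretoneurin. None did by the test: limma called 0 of the 34 probes, and 0 had an unadjusted p under 0.05. The smallest unadjusted p among them was 0.0640. All 34 had an adjusted p of 0.998 in limma, taken over all 8089 probes. Estimates ran from -0.16 for syntaxin-4 to 0.22 for a SNAP-25B probe, with a median of -0.0096 beside 0.0014 for all probes, and 20 of 34 lay below 0 where 49.4% of all probes did.

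The precision can be stated as an interval for each probe. The median standard error was 0.066, and the median half-width of the 95% confidence interval was 0.18 on the log2 scale. For 34 of 34 probes the whole interval lay inside a 1.5-fold change in either direction, as it did for 91.5% of all probes. These limits concern the ratio of signals after an offset of 50 was added to both channels. Where the signal is near that of a buffer well they do not bound the change of the transcript.

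**Figure D2:**
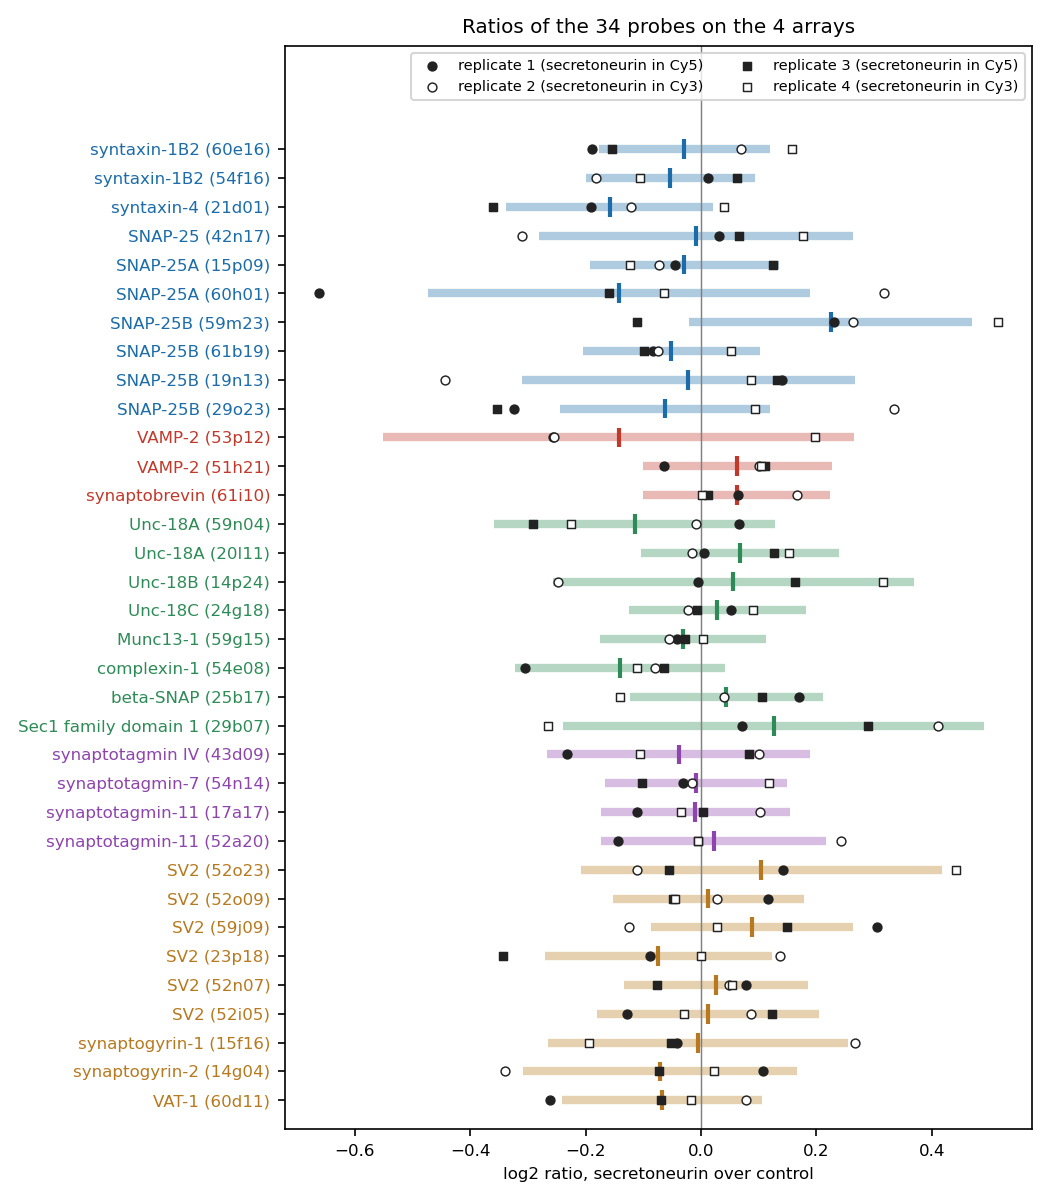
Log2 ratios of secretoneurin over control for each of the 34 probes, coloured by role. Points are single arrays, with filled symbols where secretoneurin RNA carried Cy5 and open ones where it carried Cy3, vertical ticks are limma estimates, and bars are 95% confidence intervals. Every bar crosses 0, and in 31 of the 33 probes measured on 4 arrays the points lie on both sides of 0.

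Ratios had 1 direction on all 4 arrays for 2 of the 33 probes measured on all 4, complexin-1 below 0 and synaptobrevin above. Among all probes 10.7% had 1 direction on all 4 arrays, 5.55% below 0 and 5.17% above, so the count is no higher than the background. Between arrays of 1 dye orientation, replicates 1 and 3 gave the same sign for 20 of 33 probes (58.0% of all probes) and replicates 2 and 4 for 11 of 34 (49.8% of all). Between orientations the count ran from 14 of 34, for replicates 1 and 2, to 19 of 34, for replicates 1 and 4, where 43.2% to 47.9% of all probes shared a sign. Of the 33 probes measured on all 4 arrays, 32 had an estimate that moved by over 1.5 times or to the other side of 0 when 1 array was left out, and 16 of them crossed 0. Syntaxin-4 was the exception. No count over all probes is set beside these, so they do not set the 33 apart. The dye effect was kept, so the lone array of its orientation weighed as much as the others together. Without replicate 2, 9 estimates had another sign, and 5 with no dye effect as well. Without replicate 4 these counts were 5 and 4.

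**Figure D3:**
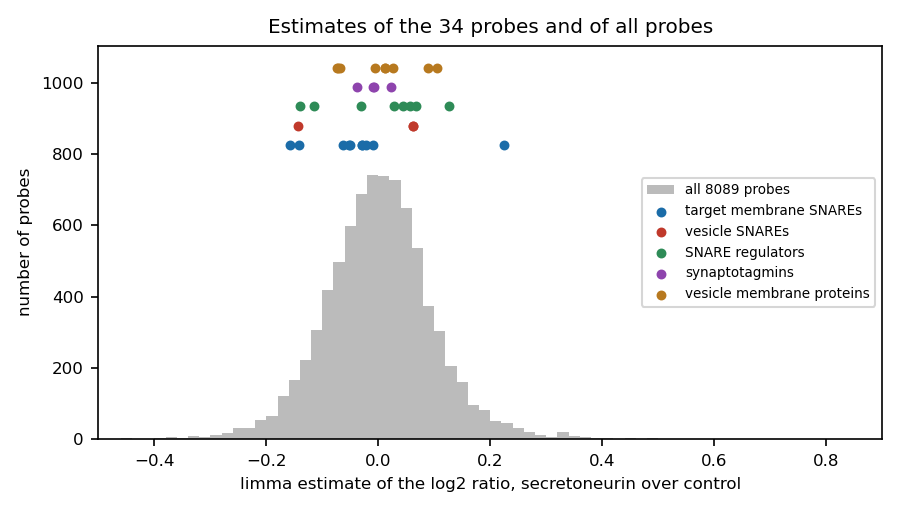
Histogram of the limma estimates of all 8089 probes (grey, number of probes per bin of log2 ratio), with the 34 probes as points above it in rows by role. The points span -0.16 to 0.22, inside the range of the grey distribution, which runs from -0.45 to 0.85 with quartiles at -0.058 and 0.059.

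Among the target membrane SNAREs, 9 of 10 estimates lay below 0, as did 49.4% of all probes. Their median was -0.040, and 0 of the 10 passed the test. Of these 10, 7 are SNAP-25 probes and 2 are syntaxin-1B2 probes, so they are not 10 separate genes. With replicate 2 turned, in both ratio and dye orientation, the median was -0.0012, and with replicate 4 turned it was -0.055. Syntaxin-4 serves, in mammals, the insulin-driven insertion of glucose transporters in fat and muscle. Its log2 signal with secretoneurin was 8.72, 8.71, 8.58 and 8.01 on replicates 1 to 4, and in control samples 8.92, 8.83, 8.94 and 7.97. Ratios were thus -0.19, -0.12, -0.36 and 0.040. The estimate was -0.16 ± 0.066 (SE, 4 arrays; limma unadjusted p = 0.0709). Control samples were the brighter on 3 arrays and secretoneurin samples on replicate 4, and the channels overlapped between groups.

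Syntaxin-1B2, the syntaxin of nerve terminals, was measured by 2 probes that did not move together. Probe 60e16 had signal differences of -0.19, 0.069, -0.15 and 0.16 on replicates 1 to 4, below 0 where secretoneurin carried Cy5 and above 0 where it carried Cy3. Probe 54f16 had the opposite pattern, with ratios of 0.013, -0.18, 0.063 and -0.11. The sign of each changed with the dye orientation. The mean of both probes was -0.041 ± 0.048 (SD, 4 arrays).

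SNAP-25, the palmitoylated partner of syntaxin in the SNARE bundle, was covered by 7 probes. Goldfish carry SNAP-25A and SNAP-25B as separate genes, and cDNA clones of such similar sequences can share target RNA, so their signals may not be separate. The 7 probes averaged -0.10, 0.0017, -0.058 and 0.11 on replicates 1 to 4, or -0.013 ± 0.090 (SD, 4 arrays). The mean lay closer to 0 than its own spread.

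Single SNAP-25 probes disagreed widely. SNAP-25B probe 59m23 had the highest estimate of the 34, from signal differences of 0.23, 0.26, -0.11 and 0.51 on replicates 1 to 4. Its log2 signal was only 7.85 to 8.45 with secretoneurin and 7.81 to 7.96 in control samples, where it passed background on no array. The 2 spots of this clone differed from each other by 0.84 on replicate 1.

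SNAP-25B probe 29o23 passed background on 3 arrays with secretoneurin and on all 4 in control samples. Its log2 signal with secretoneurin was 9.37, 8.95, 8.74 and 8.91, and in control samples 9.69, 8.61, 9.10 and 8.82. The ratios of -0.32, 0.33, -0.35 and 0.093 put control samples higher on the arrays with secretoneurin in Cy5 and secretoneurin samples higher on the others. In the same limma fit its dye effect, Cy5 over Cy3, was -0.28 ± 0.067 (SE; unadjusted p = 0.0132, adjusted p = 0.715), while its secretoneurin estimate was -0.063 ± 0.067. It was the 1 probe of 34 with an unadjusted dye p under 0.05, beside 6.65% of all probes.

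SNAP-25B probe 19n13 had ratios of 0.14, -0.44, 0.13 and 0.086, and probe 61b19 had signal differences of -0.083, -0.075, -0.10 and 0.052. The 4 SNAP-25B probes averaged 0.022 ± 0.12 (SD, 4 arrays). For SNAP-25A, probe 15p09 had ratios of -0.045, -0.073, 0.12 and -0.12.

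The second SNAP-25A probe, 60h01, passed background in no channel and had signal differences of -0.66, 0.32, -0.16 and -0.064, the widest spread of the 34. Its 2 spots differed by 1.16 on replicate 1, more than any other pair of spots among these probes, where the median difference between the spots of a clone was 0.17. A probe named only SNAP-25 (42n17) had ratios of 0.032, -0.31, 0.065 and 0.18. The 2 snap25b clones outside the rule had estimates of -0.029 ± 0.053 (43j17) and 0.0072 ± 0.052 (42e15; SE, 4 arrays), and 42e15 passed background in no control sample.

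Of the 3 vesicle SNARE probes, 2 estimates lay above 0 and 1 below, and 0 passed the test. VAMP-2 is the main SNARE of synaptic vesicles and dense-core granules, and its probe 51h21 was the 1 probe of 34 (2.94%) that passed background in every channel of every array, as did 10.4% of all probes. Its log2 signal with secretoneurin was 12.1, 10.7, 10.1 and 10.4 on replicates 1 to 4, and in control samples 12.2, 10.6, 9.96 and 10.3. The signal moved by over 2 log2 units between arrays, but within each array both samples stayed close.

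For this VAMP-2 probe the ratios were -0.065, 0.10, 0.11 and 0.10, and its estimate was 0.063 ± 0.060 (SE, 4 arrays; limma unadjusted p = 0.350). The 95% confidence interval ran from -0.10 to 0.23. Secretoneurin samples were the higher on 3 arrays by about the same amount and the lower on replicate 1. Under print-tip loess the sign was the opposite, at -0.0075, as it was after median centring, at -0.011.

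The second VAMP-2 probe, 53p12, had no usable spot on replicate 3 and was fitted on 3 arrays, with ratios of -0.26, -0.25 and 0.20 on replicates 1, 2 and 4. Its estimate was -0.14 ± 0.13 (SE, 3 arrays), with the widest interval of all 34, from -0.55 to 0.27. A probe printed as synaptobrevin (61i10) had signal differences of 0.065, 0.17, 0.013 and 0.0024, all above 0, though the control samples passed background on no array. The values on all 4 replicates, with 0.166 on replicate 2 the largest, are smaller than the median difference of 0.173 between the spots of a clone. On replicate 2 the 2 spots of this clone differed by 0.32.

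Of the 8 SNARE regulators, 5 estimates lay above 0 and 3 below, with a median of 0.036, and 0 passed the test. Complexin-1, which clamps the assembled SNARE complex, was the 1 regulator whose ratio lay below 0 on all arrays. Its log2 signal with secretoneurin was 7.83, 7.97, 8.05 and 7.93, and in control samples 8.14, 8.05, 8.11 and 8.04. The ratios were -0.31, -0.080, -0.064 and -0.11.

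Complexin-1 had an estimate of -0.14 ± 0.067 (SE, 4 arrays; limma unadjusted p = 0.100). The control sample was the brighter on every array, by the most on replicate 1, and values of both groups overlapped across arrays. Each group passed background on 1 array only. Across the scaling alternatives its estimate was -0.10 with print-tip loess, -0.14 after median centring, -0.15 without background correction and -0.20 in the authors' deposited table. It was -0.080 without replicate 1, the array with the lowest ratio, and ran to -0.20 without replicate 3.

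Unc-18 proteins bind syntaxins and are required for fusion. For Unc-18A, the neuronal form, probe 59n04 had ratios of 0.066, -0.0097, -0.29 and -0.23. The other Unc-18A probe, 20l11, had signal differences of 0.0043, -0.015, 0.13 and 0.15. Both estimates, -0.12 ± 0.089 and 0.067 ± 0.063 (SE, 4 arrays), were within 2 standard errors of 0, and they lay on opposite sides of it.

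Unc-18B had ratios of -0.0059, -0.25, 0.16 and 0.32, and its estimate was 0.056 ± 0.11 (SE, 4 arrays). It was below 0 on replicates 1 and 2 and above 0 on the others. Its mean log2 signal of 7.71 was the lowest of the 34, under the buffer wells' median of 7.88. On replicate 4 the signals were 7.13 with secretoneurin and 6.81 in the control sample, and neither passed background. The 2 spots of this clone differed by 0.66 there. Unc-18C, which partners syntaxin-4 in mammals, had ratios of 0.052, -0.022, -0.0076 and 0.090.

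The Sec1 family domain protein, a relative of Unc-18 that acts in transport between endoplasmic reticulum and Golgi in mammals, had ratios of 0.071, 0.41, 0.29 and -0.27. Replicate 4 was below 0 and the other arrays above, and the estimate was 0.13 ± 0.13 (SE, 4 arrays). It was -0.043 without replicate 2 and 0.29 without replicate 4. With no dye effect as well, these values were 0.032 and 0.26. Munc13-1, the priming factor, passed background in no channel, and its differences of -0.042, -0.056, -0.027 and 0.0036 were the narrowest of the 34. For beta-SNAP, an adaptor of the NSF ATPase, ratios of 0.17, 0.040, 0.11 and -0.14 gave an estimate of 0.044 ± 0.061. The sign of beta-SNAP was not stable: the estimate was -0.21 in the authors' deposited table, -0.17 with the spots marked to be ignored kept, and -0.013 without background correction.

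For synaptotagmins, 1 of 4 estimates lay above 0 and 3 below (median -0.0091), and 0 passed the test. Synaptotagmin-7, a high-affinity calcium sensor of slow secretion, passed background in no channel and had signal differences of -0.032, -0.016, -0.10 and 0.12. Synaptotagmin IV, which is found on secretory granules of mammalian endocrine cells, had ratios of -0.23, 0.10, 0.083 and -0.11. In both, the arrays fell on either side of 0.

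Synaptotagmin-11 was measured by 2 probes, of which 52a20 was above the buffer wells' 95th percentile. Probe 52a20 had log2 signals of 9.22, 9.47, 8.99 and 8.63 with secretoneurin and of 9.36, 9.22, 8.996 and 8.64 in control samples. The ratios of -0.14, 0.24, -0.0056 and -0.0046 gave an estimate of 0.022 ± 0.071 (SE, 4 arrays). Replicates 1 and 2 differed in opposite directions and replicates 3 and 4 hardly at all. The other, 17a17, passed background in no channel and had differences of -0.11, 0.10, 0.0036 and -0.035.

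Vesicle membrane proteins made up the last 9 probes, of which 5 estimates lay above 0 and 4 below (median 0.012) and 0 passed the test. SV2, a glycoprotein of synaptic vesicles and endocrine granules, had 6 probes, of which 4 passed background in no control sample. Their mean was 0.071, 0.010, -0.042 and 0.075 on replicates 1 to 4, or 0.028 ± 0.056 (SD, 4 arrays). Of the 6 estimates 5 lay above 0, and 0.10 for probe 52o23 came from signal differences of 0.14, -0.11, -0.056 and 0.44. Without replicate 4 this estimate was -0.034, or -0.0084 with no dye effect as well. It was 0.0091 in the authors' deposited table and 0.018 after print-tip loess.

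The 2 SV2 probes that passed background on at least 1 array in each group had estimates of opposite sign. Neither passed in both channels of the same array, and both were dimmer than the buffer wells' 95th percentile. Probe 59j09 had ratios of 0.31, -0.13, 0.15 and 0.027, and probe 23p18 had -0.089, 0.14, -0.34 and 0.00026. Differences of probe 52o09 were 0.12, 0.028, -0.048 and -0.045, those of probe 52n07 were 0.078, 0.048, -0.077 and 0.053, and those of probe 52i05 were -0.13, 0.086, 0.12 and -0.030. No array had all 6 SV2 probes on 1 side of 0.

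Synaptogyrins are small vesicle proteins with several membrane spans. Synaptogyrin-1 had ratios of -0.042, 0.27, -0.052 and -0.19, and synaptogyrin-2, its form outside the nervous system, had 0.11, -0.34, -0.073 and 0.022. Their estimates were -0.0057 ± 0.095 and -0.071 ± 0.087 (SE, 4 arrays). The VAT-1 probe, printed as a homolog of a vesicle membrane protein first found in the electric ray, had signal differences of -0.26, 0.077, -0.070 and -0.018.

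The direction of the ratio is itself not settled between replicates 2 and 4, which share a dye orientation. Over all probes their log2 ratios of secretoneurin over control had a Pearson correlation of -0.61. It was -0.62 with print-tip loess, -0.49 without background correction, -0.38 in the authors' deposited table and 0.15 in raw, median-centred ratios. Those raw ratios correlated at 0.52 between replicates 1 and 3 and at -0.52 to -0.35 between dye orientations. The raw value of 0.15 therefore cannot separate a shared dye from a shared change with secretoneurin. In the 1988 brightest probes replicates 2 and 4 correlated at -0.78, and in the 839 that passed background in every channel at -0.63. Labels and scanner headers name the same dye for the control sample on both arrays. The labelled direction was therefore kept, but it is not settled by the data. Over all probes replicate 4 correlated at -0.11 with replicate 1 and at -0.25 with replicate 3. For replicate 2 these correlations were -0.0061 and 0.11. A set of 431 probes (5.37%) was above 0.5 on replicate 2 and below -0.5 on replicate 4, beside 1 probe the other way round. Their medians on replicates 1 to 4 were 0.075, 1.0, 0.18 and -1.16. By the plate number in the clone name they were unevenly spread, with 49 of 224 probes on plate 23 but 12 of 384 on plate 52. The share of 5.37% is therefore not an even background. Without these 431, which were picked by these same ratios, the correlation between replicates 2 and 4 was -0.059. The vesicle fusion probes held 0 of the 431, and their own correlation between replicates 2 and 4 was -0.26 over the 33 probes measured on all 4 arrays.

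**Figure D4:**
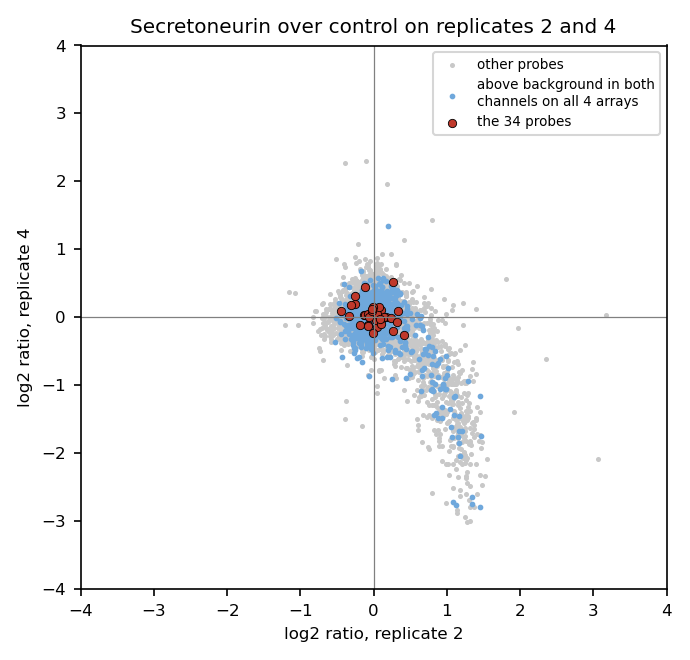
Log2 ratios of secretoneurin over control on replicate 2 (x axis) and replicate 4 (y axis), 1 point per probe, with the 34 probes in red and probes that passed background in every channel in blue. An arm of probes runs to the lower right, high on replicate 2 and low on replicate 4, and the 34 probes all lie in the central cloud.

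Both turned versions were therefore fitted as alternatives added after the data were seen. A turned array was also moved to the other dye orientation in the fit. The array left alone in its orientation then weighed as much as the others together. With the ratio of replicate 2 turned, limma called 0 of the 34 probes and 0% of all, and the median of the 34 was -0.012. Unadjusted, 2 of the 34 had a p under 0.05, beside 8.16% of all probes. They were SV2 probe 52o23 at 0.25 (limma adjusted p = 0.523) and Unc-18B at 0.23 (limma adjusted p = 0.586). Both probes were dimmer than the buffer wells' 95th percentile.

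With the ratio of replicate 4 turned, limma called 0 of the 34 and 1 probe of all (0.0124%), and the median of the 34 was -0.0044. Unadjusted, 2 of the 34 had a p under 0.05, beside 10.2% of all probes. They were the Sec1 family domain protein at 0.31 (limma adjusted p = 0.441) and VAMP-2 probe 53p12 at -0.24 (limma adjusted p = 0.460). Syntaxin-4 stood at -0.052 and -0.16 with replicate 2 and replicate 4 turned, complexin-1 at -0.10 and -0.083, and VAMP-2 probe 51h21 at 0.043 and 0.041. The fits without replicate 2 and without replicate 4 called 4.35% and 5.46% of all probes, and 0 of the 33 that each could test. Turning replicate 2 changed the sign of 13 of the 34 estimates, and turning replicate 4 the sign of 9. How far the new weights of the arrays gave these changes was not tested.

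**Figure D5:**
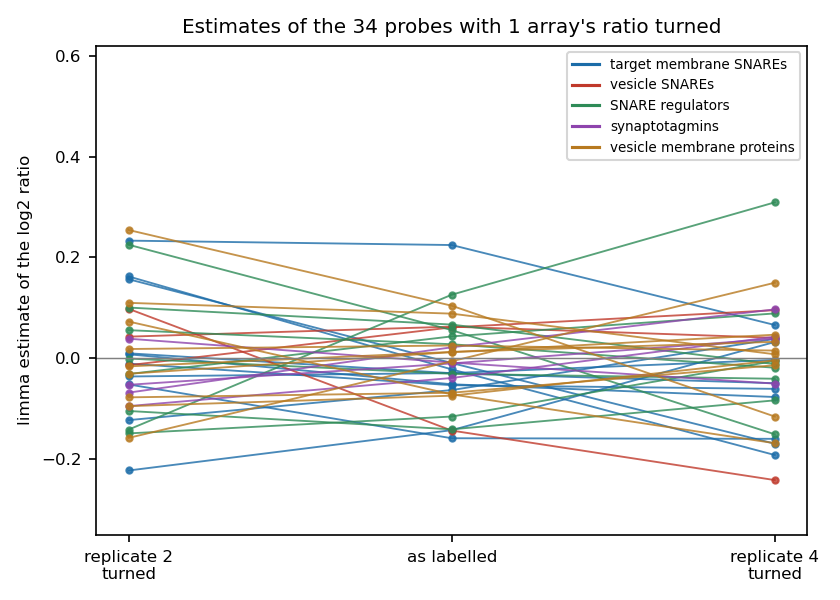
Limma estimates of the log2 ratio for the 34 probes with the ratio of replicate 2 turned, as labelled, and with the ratio of replicate 4 turned, 1 line per probe coloured by role. A turned array also changed its dye orientation in the fit, and with it the weights of the arrays. Many lines cross 0: 13 of the 34 estimates change sign on the left and 9 on the right.

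Other genes of vesicle trafficking that the name rule leaves out were measured by 42 probes, for Rab proteins, clathrin and its adaptors, coatomer, annexins, synucleins, exocyst and active zone proteins, among others. Limma called 0 of the 42, 0 had an unadjusted p under 0.05, and their median was -0.0058, with 18 above 0 and 24 below. The probe of smallest unadjusted p was Rab-7, a GTPase of late endosomes, with ratios of -0.62, 0.0096, -0.32 and 0.10 and an estimate of -0.21 ± 0.075 (SE, 4 arrays; limma adjusted p = 0.998). Its ratios were below 0 where secretoneurin carried Cy5 and above 0 where it carried Cy3. Next came a clone similar to the mu 1 subunit of adaptor complex 4, which passed background in no secretoneurin sample, and clathrin light chain A, which passed in no control sample.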

How the data were processed

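Each of the 4 arrays carried RNA of secretoneurin cells and of control cells. Per the file headers, the deposited scanner files hold linear spot intensity and local background in both channels, from adaptive quantification, neither background subtracted nor corrected for crosstalk. The series' value table, deposited by the authors, has log2 ratios, taken as Cy5 over Cy3 because each column correlated with the log2 ratio of that array's raw intensities (r from 0.545 to 0.709), with column medians of 0.0037, 0.031, 0.0037 and -0.046. The sources used here do not say how it was normalized. It served as an alternative.

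Background was corrected with normexp (offset 50) and a loess curve per array (span 0.3, with 4 iterations) normalized the ratios, all in limma 3.58.1 (R 4.3.3). Spots marked to be ignored (421 to 981 per array, 1 to 5 of them on the probes described) and 1128 control or empty spots had no weight. The 2 spots of each clone were averaged. Probes measured on at least 3 arrays were tested (lmFit and eBayes, two-sided, Benjamini-Hochberg adjustment over all probes, threshold 0.05), with terms for secretoneurin and for the dye of each probe and 2 residual degrees of freedom. The file headers place the quantification of replicates 1 and 3 and of 2 and 4 on different days, which coincides with dye orientation, so day and dye cannot be told apart. Channel signals were compared after Aquantile scaling. Precision is limited by the number of arrays.

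The members, gene lists and tests were chosen with earlier results of these data known. All members are named. Array names were kept as printed, and no probe was tied to a genome position or sequence.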

Additional observations from a re-analysis of the deposited data

Results flagged for a closer look

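In 3 of the 33 probes measured on all 4 arrays, 1 array lay far from the others by Dixon's ratio of the gap to the range, past its 95% critical value. Chance alone gives this in about 1 in 20 groups, and 437 of 7953 probes (5.49%) met it, beside 9.09% of these 33. VAMP-2 probe 51h21 had a ratio of 0.943, with replicate 1 at -0.065 and the others between 0.10 and 0.11. SNAP-25B probe 19n13 had a ratio of 0.908, with replicate 2 at -0.44 and the others between 0.086 and 0.14. SNAP-25B probe 61b19, which passed background in no control sample, had a ratio of 0.835, with replicate 4 at 0.052 and the others between -0.10 and -0.075. The array that stood apart was a different one in each.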

How the results depend on the processing

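None of the 34 probes passed the adjusted threshold in limma under any alternative that gave a value, planned or added later. Over all probes the count of 0 held without replicate 1 or 3 but was 346 without replicate 2 and 437 without replicate 4, so leaving out an array gave 0 to 437, and in those 2 fits the lone array of its dye orientation is taken to vary as the rest do. There the smallest adjusted p among the 34 was 0.248 and 0.141, beside 4.35% and 5.46% of all probes called. With no dye effect as well, added later, both counts were 0, with 238 and 430 probes at an unadjusted p under 0.05. Turning replicate 4 gave 1 call over all probes. The turned ratios, the normexp offset of 0, the use of ignored spots, the buffer percentile and the limit of 0.5 were also chosen after seeing the data. The median of the 34 ran from -0.019 to -0.0081 when 1 array was left out. It was 0.063 among probes that passed background in every channel, where 1 of the 34 remained. Across 4 other scalings (no background correction, print-tip loess, median centring, the authors' deposited table) 18 of the 34 estimates kept their sign and 16 had another sign under at least 1. No count over all probes is set beside these, so they do not set the 34 apart. Every fit is paired, since each ratio sets both samples of 1 array against each other, and no unpaired fit was run. Signal near that of buffer wells limits 26 of the 34 probes.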
